A study of Mus musculus with 6 samples.

Results

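Imprinted genes are transcribed mainly or only from the copy inherited from one parent. The 38 imprinted genes described here form 16 groups on the chromosomes, and their RNA was measured in cortical cells of mouse embryos whose mothers had received phenobarbital or saline. Members were chosen by name, with earlier results of these data known. An array probe was taken as a member where its accession mapped to one of the 38 symbols. On the array 36 genes were matched, by 62 probes. H19 and Rian had no probe matched in this way, and their RNA was not analysed here. Of the matched genes 35, with 58 probes, had signal well above background throughout at least 1 group and were tested, among 34673 probes in all. These probes carry 25304 names, of which 15181 are gene symbols and 10123 are accessions or probe names that were not mapped to a gene. Rtl1, a retrotransposon-derived gene, was the matched gene left out: it exceeded background on 2 of the 3 controls and on no phenobarbital array.

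As background, the parent-specific expression of these genes is set by DNA methylation that differs between egg and sperm and is kept through embryonic development at imprinting control regions. Zinc finger proteins such as Zfp57 bind the methylated copy and recruit Trim28, while Dnmt1 copies the methylation at each cell division. Paternally expressed members such as Igf2, Dlk1 and Peg3 are widely associated with fetal growth, and several maternally expressed ones, such as Igf2r and Phlda2, with its restraint. In the embryonic brain the paternal genes Ndn, Magel2 and Nnat are known in neurons, Plagl1 in progenitors, and Ube3a is silenced on the paternal copy in mature neurons. The arrays measured total RNA of inbred embryos, so which parental copy a transcript came from was not measured.

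Both groups were C57BL/6N embryos of timed-pregnant dams. Control dams were given saline and the others phenobarbital, a sedative and antiepileptic barbiturate acting on GABA-A receptors, at 80 mg/kg from an 8 mg/mL solution, as intraperitoneal injections 6 h apart over embryonic days 10 to 11. Cortex was dissected at embryonic day 12 by the protocol, while the sample titles give a slightly later stage. Its cells were dissociated, plated on poly-L-ornithine and fibronectin, and lysed 4 h later. The cells carry the label neural progenitor cells of the cerebral neocortex. Each group holds 3 one-colour Agilent arrays, with 1 sample on each. Nothing in the labels says whether the samples of a group were separate litters or dams, so the spread that the p-values rest on may be technical rather than between animals.

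Values are log2 signals relative to the 75th percentile of the array, so 0 stands for that percentile, and levels of different probes are not compared. Between 62.8% and 68.7% of spots were well above background, and the 75th percentile itself was 1116 to 1291 on control arrays and 1803 to 1862 on phenobarbital arrays. All 3 phenobarbital arrays and control replicate 1 shared slide 1, while control replicates 2 and 3 were on slides of their own. Of 34673 probes 5618 changed (limma, adjusted p below 0.05), 2415 up and 3203 down, and the median log2 fold change of all probes was -0.15. All 15 markers of cortical progenitors and all 13 of neurons were above background and tested. In such bulk RNA, fewer cells of a type and less RNA per cell cannot be told apart.

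Of the 35 imprinted genes tested, 9 fell with phenobarbital, none rose and 26 did not pass, each gene being called on its brightest probe. The falls were Meg3, Mirg, Magel2, Plagl1, Nap1l5, Impact, Asb4, Zim1 and Gnas, by 0.43 to 0.97 on the log2 scale. Over all names 10.1% fell and 6.00% rose, and over gene symbols alone 9.37% fell and 7.02% rose. The 9 genes are 25.7% of the imprinted genes tested. As the members were chosen with earlier results of these data known, such shares describe the list and are not a test of it. A separate list of 38 tested imprinted genes, given below, had 5 rises and 2 falls. At an unadjusted p below 0.05 there were 16 falls and 0 rises among the 35 (45.7% and 0), against 25.3% and 10.1% of all names and 25.1% and 11.4% of gene symbols. Of the 35 log2 fold changes 26 were below 0. Their median was -0.36, against -0.17 over all names, and they ranged from -1.20 for Ddc to 1.06 for Snrpn. Control and phenobarbital values did not overlap for 19 of the 35 (54.3%), against 44.5% of all names and 47.1% of gene symbols. With every probe counted, 11 of 58 probes fell and 1 rose, against 16.2% of all probes called in either direction.

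**Figure D1:**
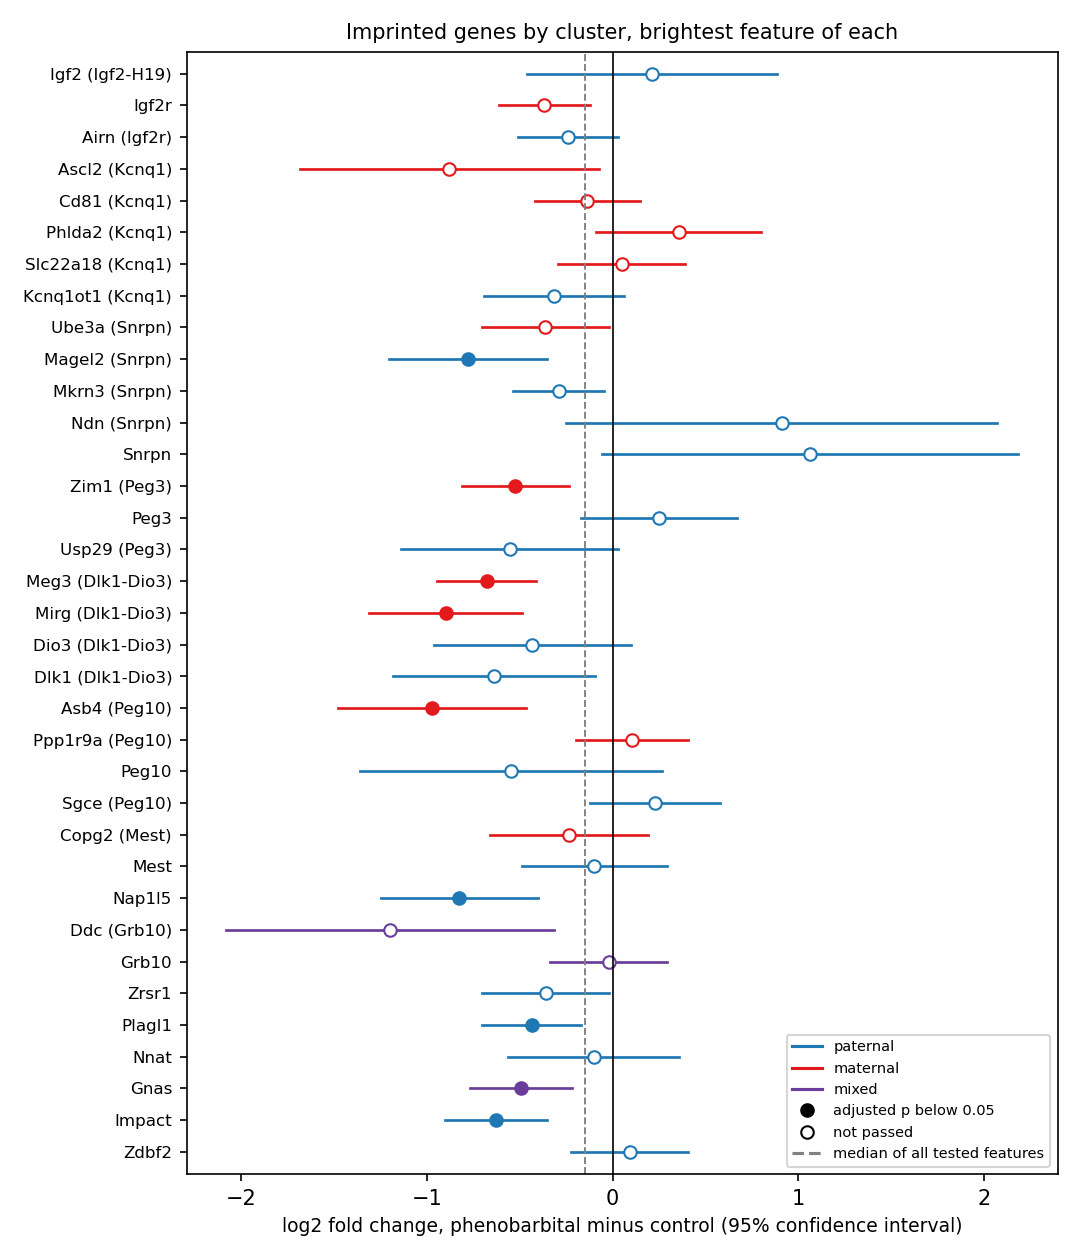
Log2 fold change of the brightest probe (array feature) of each of the 35 tested imprinted genes, phenobarbital minus control, with its 95% confidence interval from limma, ordered by chromosomal group and coloured by the parental copy usually expressed. The 9 filled points passed an adjusted p of 0.05 and all lie left of 0 and of the dashed line at -0.15, the median of all probes.

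By parental copy, 4 of 20 paternally expressed genes fell (Magel2, Plagl1, Nap1l5 and Impact), 4 of 12 maternally expressed ones (Meg3, Mirg, Asb4 and Zim1), and 1 of the 3 whose parental copy depends on tissue or transcript (Gnas). The median log2 fold change was -0.30 for paternal and -0.36 for maternal genes, and the difference between them was not tested. The number of falls moved with the scaling of the arrays: 4 genes fell after quantile normalization, 5 after scaling to the median, 3 when only probes detected everywhere set the percentile, and 13 with normexp background correction. In the same fits 4.94%, 3.92%, 3.64% and 20.0% of all probes fell, against 9.24% in the fit described, and the share of rises among all calls was 59.1%, 62.7%, 66.6% and 25.4%, against 43.0%. All 9 log2 fold changes stayed below 0 and below the median of all probes in these 4 fits. Scaling to the median or to probes detected everywhere shifts all probes of an array alike. In those fits the place below the median was therefore fixed in advance.

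The number of calls also changed when single arrays were left out, which makes that group smaller. No imprinted gene passed without control replicate 1, without phenobarbital replicate 1 or without phenobarbital replicate 2, when 0.978%, 1.23% and 0.850% of all probes fell. At an unadjusted p below 0.05 limma gave 13, 12 and 12 falls among the 35 in these fits, and at most 18.1% of all probes fell at that p in any of them. There were 7 falls without control replicate 2, 4 without control replicate 3 and 2 without phenobarbital replicate 3. With the slide as a fixed block, so that slide 1 alone informs the difference, limma called none of the 35 genes, and 0.519% of all probes fell. At an unadjusted p below 0.05 that fit gave 10 falls and 2 rises among the 35, against 12.4% and 9.78% of all probes. Within slide 1 the 9 genes lay 0.45 to 0.95 below control replicate 1, with a median difference of -0.64. That sign was fixed in advance because the groups of these genes did not overlap.

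The Dlk1-Dio3 group on chromosome 12 joins paternally expressed protein genes with maternally expressed long non-coding RNAs. All 4 of its tested genes had log2 fold changes below that of the median probe, and both tested non-coding RNAs fell. Meg3, a non-coding RNA that marks the maternal copy, measured 5.06, 5.20 and 5.02 on the control arrays and 4.30, 4.47 and 4.47 with phenobarbital. Every phenobarbital array lay below every control array, a fall of 0.68 ± 0.11 (SE, n = 3 per group) or 1.60-fold (95% interval 1.33 to 1.92, limma adjusted p = 0.0157). Its other probes went both ways without passing, at 1.02 ± 0.35 (adjusted p = 0.0892) and -0.58 ± 0.23 (0.125). On the first of them control replicate 2 was far below the rest, at -1.05 against 0.18 and 0.22 in the other controls and 0.68 to 0.97 with phenobarbital. Averaged over its probes, Meg3 had a log2 fold change of -0.08 and did not pass.

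Mirg, the non-coding host transcript of a miRNA group, measured 3.28, 3.78 and 3.33 in controls and 2.38, 2.65 and 2.66 with phenobarbital. Its groups were apart on its only probe, with a fall of 0.90 ± 0.17 or 1.86-fold (1.40 to 2.48, adjusted p = 0.0235). The RefSeq tables (GRCm38.p6) place 10 miRNA hairpins with 19 mature miRNAs inside the Mirg gene. The array probe read the host RNA, and the miRNAs themselves were not measured. Among the 19, only miR-453 and miR-496a-5p shared a seed. They are shown with both arms of miR-410 to give what the host transcript carries, 5′ to 3′ with the seed (bases 2 to 8) in capitals, all on the plus strand of chromosome 12:
miR-453: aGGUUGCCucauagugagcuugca
miR-496a-5p: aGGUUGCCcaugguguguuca
miR-410-5p: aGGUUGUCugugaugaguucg
miR-410-3p: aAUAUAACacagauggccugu

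The paternal genes of the group did not pass. Dlk1, a membrane protein related to Notch ligands, measured 3.98, 4.60 and 3.95 in controls and 3.36, 3.41 and 3.84 with phenobarbital. These groups were also apart, but the difference of -0.64 ± 0.23 missed the threshold (adjusted p = 0.0996), and the second probe gave -0.34 ± 0.32 with overlapping groups. Dio3, the deiodinase that inactivates thyroid hormone, gave -0.43 ± 0.22 (0.211). Rtl1, not tested, ranged from -6.05 to -4.92 in controls and from -6.69 to -5.67 with phenobarbital, which overlap.

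Plagl1, a zinc finger transcription factor of progenitor cells known to regulate other imprinted genes, fell. It measured 7.09, 7.02 and 6.93 in controls and 6.45, 6.60 and 6.68 with phenobarbital, a fall of 0.43 ± 0.11 or 1.35-fold (1.12 to 1.63, adjusted p = 0.0457). The second of its 4 probes gave -0.41 ± 0.11 (0.0521) and the dimmer ones 0.03 ± 0.17 and -0.19 ± 0.10. After quantile normalization the brightest probe had -0.07 and did not pass.

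The Snrpn group on chromosome 7 corresponds to the region lost in Prader-Willi and Angelman syndromes, and 1 of its 5 tested members passed. Magel2, an adaptor of ubiquitin ligases, fell. It measured 3.05, 2.61 and 2.99 in controls and 1.95, 2.37 and 1.99 with phenobarbital, a fall of 0.78 ± 0.18 or 1.72-fold (1.28 to 2.31, adjusted p = 0.0351). Ndn, a MAGE protein of the same family, measured 2.50, 0.93 and 2.85 in controls and 3.07, 3.16 and 2.78 with phenobarbital. Control replicate 2 stood alone, the groups overlapped, and the difference was 0.91 ± 0.48 (0.226).

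Snrpn, which encodes a spliceosomal protein, measured 0.53, -0.89 and 0.99 in controls and 1.37, 1.41 and 1.04 with phenobarbital on its brightest probe. Again control replicate 2 was lowest, and the difference of 1.06 ± 0.47 did not pass (0.158). Its other probes gave 0.53 ± 0.27 and -0.46 ± 0.21. Mkrn3, a ring finger protein, gave -0.29 ± 0.10 (0.0972) on one probe and 0.25 ± 0.15 on the other. Ube3a, the ubiquitin ligase of Angelman syndrome, measured 0.61 to 1.04 in controls and 0.38 to 0.56 with phenobarbital, a difference of -0.36 ± 0.14 that did not pass (0.127).

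In the Peg3 group the maternal gene fell and 1 probe of the paternal gene rose. Zim1, a zinc finger gene, measured -4.36, -4.22 and -4.52 in controls and -4.81, -4.96 and -4.91 with phenobarbital. The groups were apart, with a fall of 0.52 ± 0.12 or 1.44-fold (1.18 to 1.76, adjusted p = 0.0357). This probe of Zim1 was dim: the lowest signals well above background were -6.17 to -5.63, depending on the array. The second probe of Zim1 was above background on 1 array in all. Peg3, a zinc finger protein, gave 0.25 ± 0.17 (0.346) on its brightest probe, at 0.69, 0.71 and 0.27 in controls and 0.71, 0.66 and 1.05 with phenobarbital. Its dimmer probe rose, from -4.09, -4.32 and -3.81 to -2.98, -2.94 and -2.91, by 1.13 ± 0.15 (adjusted p = 0.00850), so the probes of this gene disagree on a call. With normexp that probe had 0.43 and still passed, and the mean of both probes rose by 0.69 (0.0126). Usp29, a ubiquitin protease transcribed away from Peg3, gave -0.55 ± 0.24 (0.158). The 250 bases before the starts of Peg3 and Usp29 overlap by 163 bases in RefSeq, on opposite strands.

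On chromosome 6, Asb4 and Nap1l5 fell. Asb4, a maternally expressed SOCS box protein of the Peg10 group, measured 1.75, 2.25 and 1.45 in controls and 0.86, 0.74 and 0.93 with phenobarbital, a fall of 0.97 ± 0.21 or 1.96-fold (1.38 to 2.79, adjusted p = 0.0316). This was the steepest of the 9 falls on the brightest probe, but the dimmer probe of Asb4 gave -0.01 ± 0.19. Nap1l5, a nucleosome assembly family gene that lies inside another gene, measured -1.51, -0.98 and -1.51 in controls and -2.30, -2.09 and -2.08 with phenobarbital. It fell by 0.83 ± 0.18 or 1.77-fold (1.32 to 2.38, 0.0305), and its second probe gave -0.57 ± 0.37.

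The other genes of the Peg10 and Mest groups did not pass. Peg10, a retrotransposon-derived gene, gave -0.55 ± 0.34 and 0.51 ± 0.19 on its probes. Sgce, epsilon-sarcoglycan, gave 0.23 ± 0.15, and Ppp1r9a, the actin-binding protein neurabin, 0.11 ± 0.13 and 0.52 ± 0.16. Mest, a hydrolase-like protein abundant in mesoderm, measured 6.42, 6.12 and 6.40 in controls and 6.04, 6.49 and 6.12 with phenobarbital. These groups overlap, with a difference of -0.10 ± 0.16, and its dimmer probes gave 0.25 ± 0.14 and 0.71 ± 0.21 (adjusted p = 0.0643 for the last). Copg2, a coatomer subunit, gave -0.23 ± 0.18 and -0.40 ± 0.14.

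Impact, a regulator of the Gcn2 kinase that is abundant in neurons, fell on both of its probes. The brighter measured 1.95, 2.08 and 1.99 in controls and 1.33, 1.29 and 1.53 with phenobarbital, a fall of 0.63 ± 0.11 or 1.54-fold (1.28 to 1.87, adjusted p = 0.0209). The dimmer went from -2.66, -2.23 and -2.62 to -2.94, -3.31 and -3.24, a fall of 0.66 ± 0.17 (0.0461). It was the only imprinted gene with more than 1 probe past the threshold.

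Gnas, the stimulatory G protein alpha subunit, fell on its brightest probe from 7.15, 7.19 and 7.24 to 6.64, 6.87 and 6.60, by 0.49 ± 0.11 or 1.41-fold (1.16 to 1.70, adjusted p = 0.0374). A second probe gave -0.48 ± 0.13 (0.0502) and the third was below background on every array. The locus makes several transcripts with different parental expression, and the probes were not assigned to them here. After quantile normalization Gnas had -0.10 and did not pass.

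**Figure D2:**
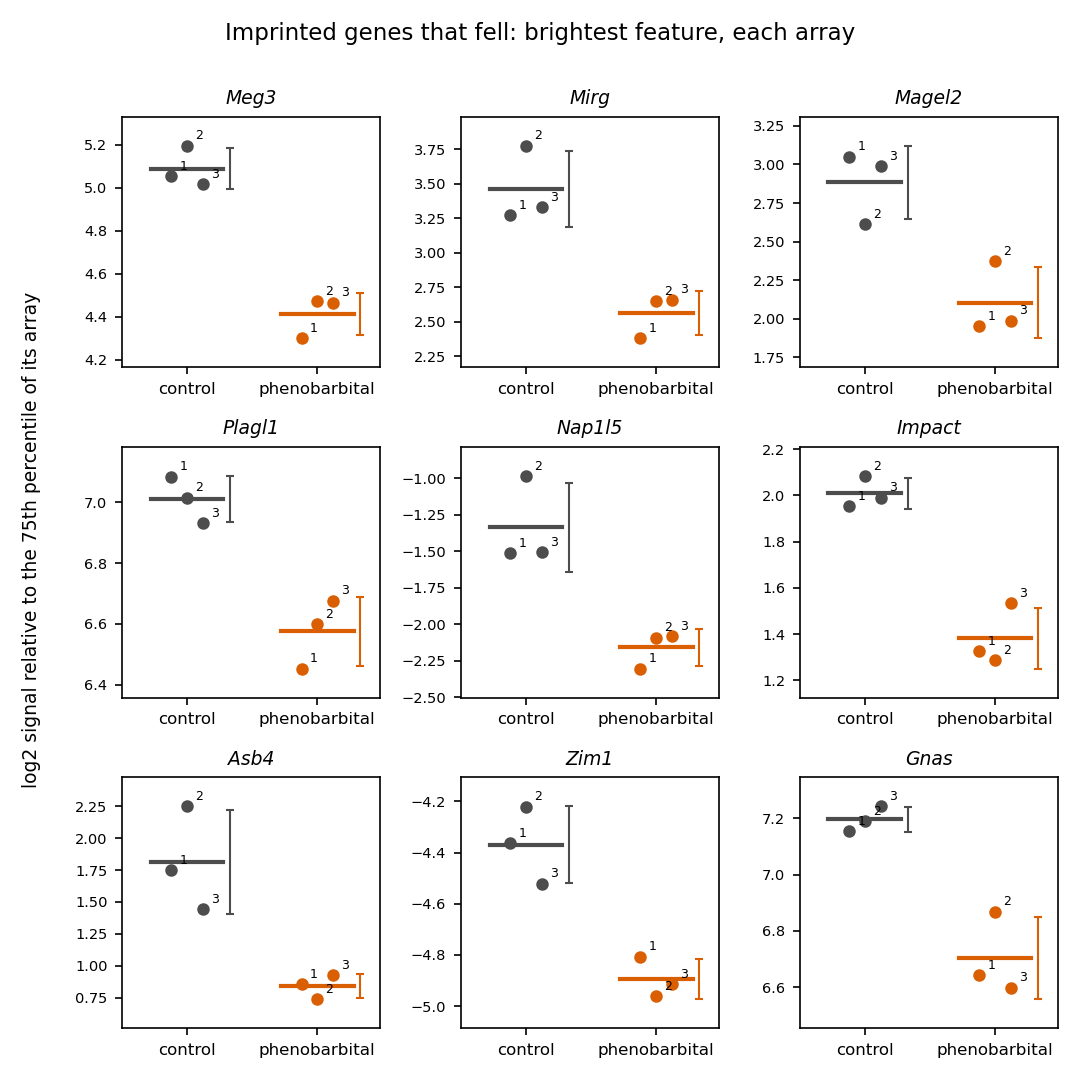
Log2 signal of the 9 imprinted genes that fell, on the brightest probe (array feature) of each, with 1 point per array numbered by replicate, the group mean as a line and ± SD as a bar. In each panel the 3 phenobarbital arrays lie below the 3 control arrays; scales differ between panels.

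Growth-related genes of the Igf2 and Kcnq1 groups did not pass on their brightest probes. Igf2, the fetal growth factor, measured -0.01, 1.11 and 0.39 in controls and 0.84, 0.59 and 0.68 with phenobarbital. The controls spread around the phenobarbital values, and the difference was 0.21 ± 0.28 (adjusted p = 0.623). Igf2r, the receptor that clears Igf2, measured 1.59, 1.62 and 1.45 in controls and 1.18, 1.20 and 1.18 with phenobarbital. Its groups were apart, and its difference of -0.37 ± 0.10 just missed the threshold (0.0549). It passed in 6 of 21 alternative fits, among them the one with 1 probe a gene (-0.37, 0.0493). Airn, the non-coding RNA transcribed against Igf2r, gave -0.24 ± 0.11 and -0.02 ± 0.13.

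Kcnq1ot1, the paternal non-coding RNA that silences its neighbours, measured -0.89, -0.91 and -1.21 in controls and -1.27, -1.56 and -1.13 with phenobarbital on its brightest probe (-0.32 ± 0.16, adjusted p = 0.201). Its dimmer probe fell, from -2.93, -2.74 and -2.84 to -3.35, -3.53 and -3.59, by 0.65 ± 0.12 (0.0197). Of the maternal genes it controls, Phlda2, which restrains placental growth, gave 0.36 ± 0.19 (0.220) and the transporter Slc22a18 0.05 ± 0.14. Ascl2, a trophoblast factor, gave -0.88 ± 0.34 (0.118). Cd81, a tetraspanin, measured 5.00, 4.84 and 5.02 in controls and 4.80, 4.95 and 4.70 with phenobarbital, which overlap.

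Of the remaining members, Ddc, which makes dopamine and serotonin, had the lowest log2 fold change of the 35 and did not pass. It measured -1.89, -1.31 and -2.78 in controls and -2.91, -3.33 and -3.34 with phenobarbital (-1.20 ± 0.37, adjusted p = 0.0700), with controls that spread over more than 1 on the log2 scale. Its neighbour Grb10, an adaptor of growth factor receptors, measured 2.45, 2.37 and 2.13 in controls and 2.39, 2.16 and 2.35 with phenobarbital, a difference of -0.02 ± 0.13 with a 95% interval of -0.34 to 0.29. Nnat, neuronatin, measured 5.75, 6.29 and 6.44 in controls and 6.06, 6.10 and 6.01 with phenobarbital. Its brightest probe gave -0.10 ± 0.19 and its second 0.97 ± 0.34 (0.0972). Zrsr1, a splicing factor, gave -0.36 ± 0.14 (0.128) between 0.79, 0.68 and 1.12 in controls and 0.49, 0.57 and 0.44 with phenobarbital. Zdbf2 measured -0.67, -1.02 and -0.67 in controls and -0.70, -0.73 and -0.65 with phenobarbital, which overlap.

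Probes of the same gene often differed. Of 18 imprinted genes with more than 1 tested probe, 10 had log2 fold changes of 1 sign on all of them (55.6%) and 8 did not, against 55.3% with 1 sign among all 3980 such genes. The 8 were Meg3, Mest, Mkrn3, Nnat, Peg10, Plagl1, Snrpn and Zdbf2. The range between probes was widest for Meg3 (1.70), Snrpn (1.53), Nnat (1.07) and Peg10 (1.06). Its median was 0.44 over the 18 and 0.36 over all such genes.

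**Figure D3:**
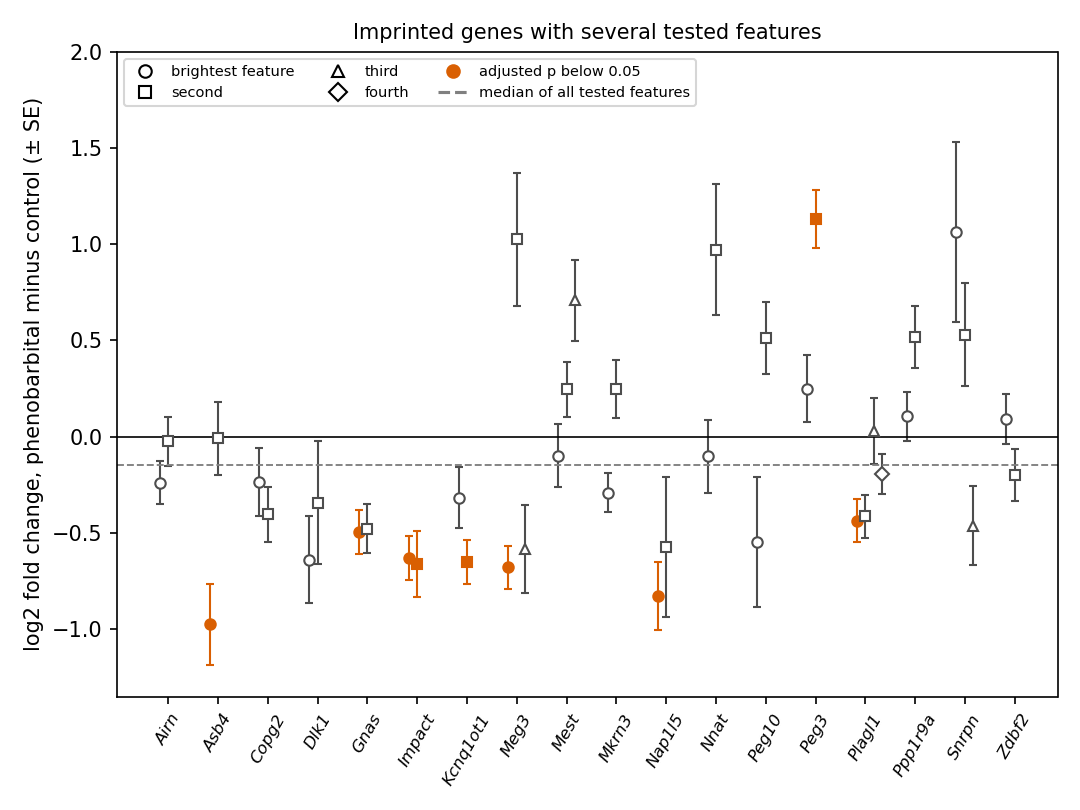
Log2 fold change ± SE of every tested probe (array feature) of the 18 imprinted genes with more than 1, in order of brightness within a gene. Impact has both probes filled (adjusted p below 0.05), while Meg3, Nnat and Peg10 have probes on both sides of 0.

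The genes that keep imprints in place were examined beside the imprinted genes themselves. Of 32 listed, 28 were tested: Zfp57 and Tet2 fell, Dnmt1 rose and 25 did not pass, with a median of -0.19. Over all names 10.1% fell and 6.00% rose, with a median of -0.17. The share of this list called in either direction was below that of all names, so the calls below describe single genes and not the list. Zfp57, the zinc finger protein that binds methylated imprinting control regions, measured 2.07, 2.22 and 2.02 in controls and 1.15, 1.35 and 0.75 with phenobarbital. It fell by 1.02 ± 0.17 or 2.02-fold (adjusted p = 0.0176), and stayed past the threshold under each of 4 other scalings and background corrections, with -0.97 to -0.86. Its second probe gave -0.16 ± 0.16 with overlapping groups. The call ended without control replicate 1 (-1.03, adjusted p = 0.0632), without phenobarbital replicate 1 (-1.05, 0.0627) and with the slide as a fixed block (-0.98, 0.132), with falls of about the same size.

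Dnmt1, the methyltransferase that maintains methylation through division, rose from 1.11, 0.87 and 0.93 to 1.72, 1.74 and 1.55, by 0.70 ± 0.12 or 1.62-fold (adjusted p = 0.0173). Its call ended without control replicate 3 (0.68, 0.0544), without phenobarbital replicate 1 (0.68, 0.0745) or 2 (0.66, 0.0716) and with the slide as a fixed block (0.56, 0.163). Over all 21 alternatives its log2 fold change stayed between 0.56 and 0.79. Tet2, which oxidises methylated cytosine, fell from 1.55, 1.63 and 1.50 to 1.21, 1.03 and 0.95, by 0.50 ± 0.11 (0.0356). It did not pass in 12 of 21 alternatives, among them quantile normalization, the slide as a fixed block and each fit without 1 array, with log2 fold changes of -0.57 to -0.40 over all of them. Trim28, the corepressor that Zfp57 recruits, gave 0.35 ± 0.13 (0.119), Uhrf1, which brings Dnmt1 to replicated DNA, -0.02 ± 0.13, and Zfp445, a second protein of the Zfp57 kind, -0.04 ± 0.18. Arid4a had a dimmer probe that fell, by 0.42 ± 0.11 (0.0483), while its brightest gave 0.33 ± 0.13.

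**Figure D4:**
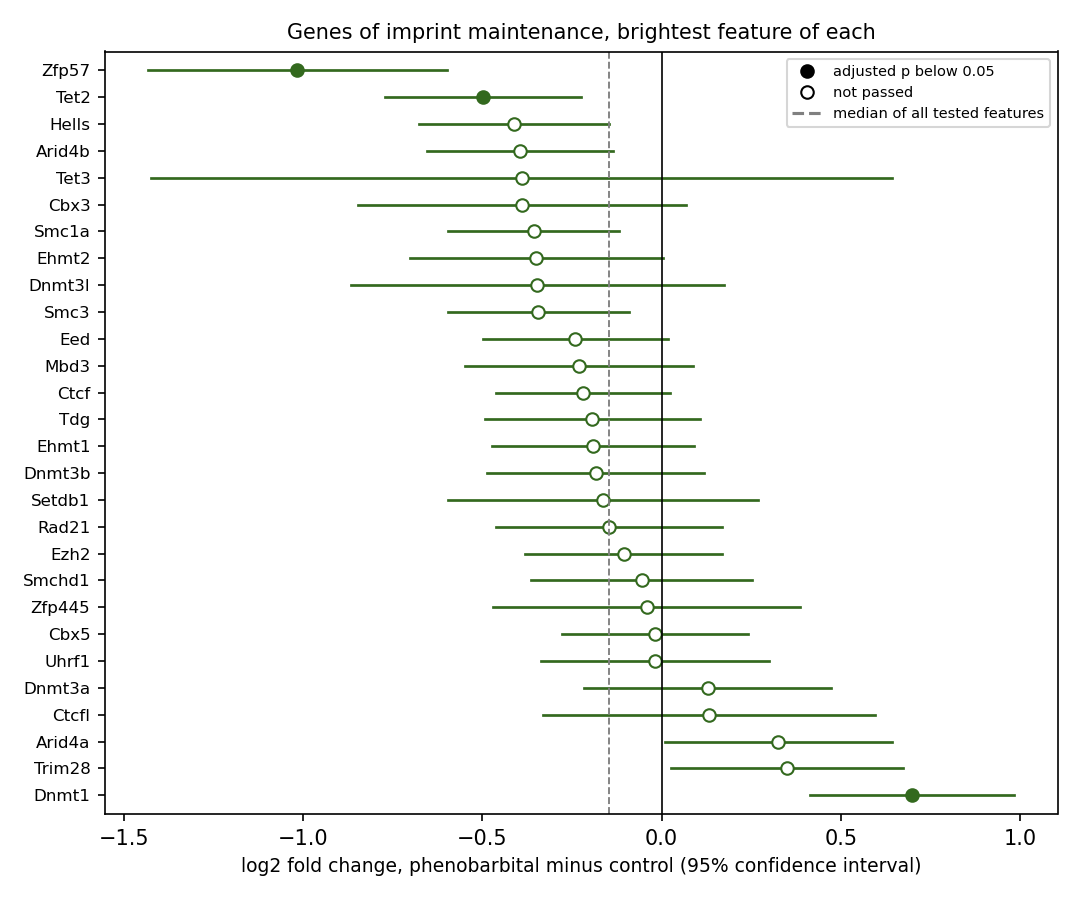
Log2 fold change of the brightest probe (array feature) of the 28 tested genes of imprint maintenance, with its 95% confidence interval. Zfp57 (-1.02) and Tet2 (-0.50) passed below 0 and Dnmt1 (0.70) above it; the dashed line is the median of all probes.

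Zfp57 is known to bind the methylated hexamer TGCCGC, so the 250 bases before each RefSeq start were searched for it on both strands. It was present before a start of 7 of 33 imprinted genes searched (21.2%), against 9.84% of 27025 genes. The 33 include Rian, which had no matched probe, and leave out Impact, a fallen gene that was not searched. A gene with several starts had more windows in which to hold the hexamer. Among the members' windows 16.0% held it, against 8.68% of all windows. The hexamer itself holds a CG pair, and the members' windows had a median of 10 CG pairs against 6 over all windows. The Mest windows with the hexamer overlap each other almost fully. What base composition and overlapping windows add to the higher shares was not tested. Of the 8 fallen genes searched, Meg3, Plagl1, Nap1l5 and Zim1 held it. A match is a run of letters, not a binding site, and DNA methylation was not measured. Zdbf2, Mest and Copg2, which did not pass, held it too, and a link between the motif and the falls was not tested. The windows of the 4 fallen genes are shown as examples, read 5′ to 3′ along the gene's strand with the hexamer or its reverse complement in capitals. They lie in GRCm38.p6 at chr12:109540746-109540995 (plus strand), chr10:13090582-13090831 (plus strand), chr6:58907127-58907376 (minus strand) and chr7:6696433-6696682 (minus strand):
Meg3: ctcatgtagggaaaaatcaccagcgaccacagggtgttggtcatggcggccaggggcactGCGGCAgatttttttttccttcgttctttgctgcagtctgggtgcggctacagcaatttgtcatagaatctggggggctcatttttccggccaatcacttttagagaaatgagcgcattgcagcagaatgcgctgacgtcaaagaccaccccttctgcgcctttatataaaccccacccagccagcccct
Plagl1: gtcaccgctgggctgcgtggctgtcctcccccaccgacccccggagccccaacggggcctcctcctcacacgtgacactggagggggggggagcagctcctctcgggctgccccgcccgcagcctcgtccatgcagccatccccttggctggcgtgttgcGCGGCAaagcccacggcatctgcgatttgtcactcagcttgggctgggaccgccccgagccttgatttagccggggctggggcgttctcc
Nap1l5: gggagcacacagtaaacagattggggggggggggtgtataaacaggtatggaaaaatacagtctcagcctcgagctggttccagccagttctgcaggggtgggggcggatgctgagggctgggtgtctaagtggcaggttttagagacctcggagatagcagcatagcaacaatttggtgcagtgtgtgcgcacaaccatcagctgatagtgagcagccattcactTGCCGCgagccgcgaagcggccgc
Zim1: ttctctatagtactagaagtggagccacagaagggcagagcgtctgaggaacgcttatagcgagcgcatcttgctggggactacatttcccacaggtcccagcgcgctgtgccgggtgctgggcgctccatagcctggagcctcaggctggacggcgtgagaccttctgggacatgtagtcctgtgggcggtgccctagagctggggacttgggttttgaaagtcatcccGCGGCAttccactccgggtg

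Of 45 further imprinted genes listed, 38 were tested, of which 5 rose, 2 fell and 31 did not pass, with a median of -0.25. Those called in either direction were 18.4% of the 38, against 6.00% of all names that rose and 10.1% that fell. Rises outnumbered falls in this list, unlike among the 35 members. The chaperone gene Nap1l4 of the Kcnq1 region rose by 1.06 ± 0.12 (adjusted p = 0.00633), from 1.68, 1.34 and 1.63 in controls to 2.61, 2.60 and 2.60, though its second probe gave -0.16. The flippase gene Atp10a rose by 1.11 ± 0.20 (0.0196), the paraoxonase gene Pon2 by 0.72 ± 0.13 (0.0192), the sterol reductase gene Dhcr7 by 0.62 ± 0.10 (0.0165) and the actin nucleator gene Cobl by 0.56 ± 0.12 (0.0293, with -0.15 on its second probe). Cdkn1c, a maternally expressed inhibitor of the cell cycle, fell from 5.11, 5.09 and 5.29 to 4.82, 4.69 and 4.53, by 0.48 ± 0.12 (0.0466). It did not pass in 14 of 21 alternatives, each fit without 1 array among them, and ranged from -0.55 to -0.25. The amino acid transporter gene Slc38a4 fell by 0.88 ± 0.18 (0.0270). Of the 21 alternatives, the call was lost in 2 for Nap1l4, 6 for Dhcr7, 7 each for Atp10a and Pon2, 8 for Slc38a4 and 9 for Cobl. None of these 6 changed sign, and Cobl had 0.20 (0.341) as the mean of its probes. Their groups did not overlap, so the sign was fixed in advance without 1 array and with the slide as a fixed block. For several of these genes imprinting is known in placenta or in few tissues, and Dcn in this list is also a marker of meninges.

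Markers of other cell types moved between the same arrays. For the counts below, 10.1% of all names fell and 6.00% rose. Signals were summed over the tested markers of a type on a scale where the 75th percentile of an array is 1. Neuron markers summed to 300.2 to 348 on control arrays and 189.7 to 238 with phenobarbital, and 6 of 13 fell, among them Elavl4 by 0.71 ± 0.10 (adjusted p = 0.0114) and Stmn2 by 0.64 ± 0.12 (0.0226). Markers of meninges and mural cells summed to 72.7 to 77.5 and 55.1 to 62.0, with 6 of 14 falling and 1 rising. Endothelial markers summed to 85.4 to 91.3 and 51.4 to 61.0, with 4 of 12 falling, and those of red blood cells to 1826 to 2568 and 1191 to 1277, with 7 of 11 falling. Markers of the choroid plexus rose in 7 of 11 cases and summed to 3.34 to 6.68 and 13.6 to 25.1. Cortical progenitor markers summed to 574 to 623 and 449 to 530.3, with 3 of 15 falling and 1 rising. Among the microglia markers 3 of 11 fell and 1 rose, and the sums overlapped. Apart from Kl of the choroid plexus and 1 red blood cell gene that was not matched, every listed marker of these 7 types was tested. The part of these shifts in the values of the imprinted genes was not tested.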

How the data were processed

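The arrays hold 1 colour, and Agilent Feature Extraction 10.7.3.1 read them, per the file headers (version 10.7 in the submitters' processing notes); the headers name build mm9 for the annotation. Each deposited spot intensity is linear, with background subtraction and spatial detrending done by that program. The authors' value table is in log2: differences between arrays equalled those of log2 processed signals, less 1 constant per array, to within 1.78e-06 for 99% of single-spot probes. The constant on which each probe is centred there stays unknown. Column medians of that table ran from 0.08 to 0.10 for controls and from -0.09 to -0.02 for phenobarbital.

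From log2 processed signals the 75th percentile of each array, over 59305 spots that are not controls, was subtracted. Outlier spots (98 to 198 per array) were set to missing and spots of a probe averaged. No spot was saturated. Of 55681 probes, 26582 had an accession in the RefSeq gene table (GRCm38.p6, used for names). Probes entered the fit if flagged well above background on all arrays of 1 group or both, with at least 2 values per group. All 34673 were fitted together in limma 3.58.1 (lmFit, eBayes; R 4.3.3), without covariates, two-sided, with Benjamini-Hochberg adjustment over all of them and a threshold of 0.05. A gene was called on its brightest kept probe. Fold changes are phenobarbital over control. The fit was checked on simulated data with independent noise for each probe and array. No slide or array effect was simulated, so that check does not cover such effects. All 38 genes are named; of the imprinting lists up to 6 called genes per direction, of cell type lists up to 3. Members and lists were chosen with earlier results of these data known. The number of arrays limits the precision.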

Additional observations from a re-analysis of the deposited data

How the results depend on the processing

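Across 21 alternatives, the 9 fallen genes kept the call in 99 fits and lost it in 90, and none changed sign. As their groups did not overlap, that sign was fixed in advance without 1 array and with the slide as a fixed block. It could not change either where only the filter or the prior differed. Meg3 kept it in 14 alternatives, Mirg and Impact in 13, Magel2 in 12, Asb4 and Nap1l5 in 11, Zim1 in 10, Gnas in 8 and Plagl1 in 7. The other 26 genes stayed as described in 502 fits, passed the threshold in 21 and changed sign in 23. The count of imprinted genes that fell, 9 as described, was 4 with quantile normalization, 5 with scaling to the median, 3 with the percentile over probes above background on all arrays, 1 with no filter on dim probes, 17 with array weights and 0 with the slide as a fixed block. Leaving out 1 array at a time gave 0 to 7. Rises numbered 2 with array weights (Igf2 and Snrpn) and 1 with the mean of a gene's probes (Peg3), against 0. Of all probes, 9304 changed with normexp, 3640 with scaling to the median, 1929 with no filter, 13899 with array weights and 1094 with the slide as a fixed block, against 5618, and 1374 to 5880 without 1 array. The cause of these shifts was not tested.

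With the replicate block, limma called 577 probes and 0 imprinted genes (11 falls and 0 rises at an unadjusted p below 0.05, against 16.7% and 10.1% of all probes). Zfp57 and Dnmt1 did not pass in that fit (0.0561 and 0.0864). The replicate numbers are shared labels only: deviations of same-numbered arrays correlated at 0.0635, -0.158 and -0.325, and not every array correlated best with its own number.

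Log2 fold changes that turned sign did not pass in either fit. With normexp, Cd81 had 0.0096 and Slc22a18 -0.25. With quantile normalization, Cd81 had 0.087, Grb10 0.095, Mest 0.19 and Nnat 0.19. Grb10 had 0.021 with scaling to the median and 0.073 with the percentile over probes above background. With the mean of a gene's probes, Mest had 0.29, Nnat 0.43 and Zdbf2 -0.0525. With array weights, Nnat had 0.16 and Zdbf2 -0.019. With the slide as a fixed block, Nnat had 0.31 and Zdbf2 -0.024, and as a random block Nnat had 0.031. Leaving out 1 array at a time, Grb10 ranged from -0.11 to 0.049, Igf2 from -0.043 to 0.52, Nnat from -0.31 to 0.041, Slc22a18 from -0.082 to 0.14 and Zdbf2 from -0.023 to 0.15.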

Other observations

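Control replicate 2 stood apart on many probes of imprinted genes. It lay more than 0.5 on the log2 scale from the mean of the other controls on 18 of 58 tested probes (31.03%), against 5 (8.62%) for control replicate 1 and 12 (20.7%) for control replicate 3. Over all tested probes the shares were 24.6%, 9.56% and 16.1%. The distance of 0.5 was chosen after the values were seen. It went both ways: Ndn, the brightest probe of Snrpn and the second probes of Meg3 and Nnat were lowest in control replicate 2. Mirg, Dlk1 and the brightest probes of Asb4, Nap1l5 and Ddc were highest in it.

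The 250 bases before the starts of imprinted genes, with Impact left out, held a median of 10 CG pairs over 50 RefSeq windows. The median over all 32851 windows was 6.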
